A study of Populus deltoides with 12 samples.

Results

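Purple leaves of one poplar cultivar were set against purple leaves of another. F_P denotes purple leaves of 'Zhongshanyuan' (ZSY), and P denotes the leaves of 'Quanhong' (QHP), which the study's methods describe as bright purple; both are cultivars of Populus deltoides whose genotype is labelled WT. Leaf color is the same on both sides of the comparison and the cultivar differs, so the question is which genes differ between ZSY and QHP when both leaves are purple. All genes were compared, over 3 F_P and 3 P libraries, which are 6 of the 12 RNA-seq libraries of the study. The other libraries came from green leaves of ZSY (F_G) and from the green cultivar L2025 (G), 3 each, and serve below as a setting for the purple-leaf values. No group was treated, and all plants were field-grown seedlings of the same site. The study's methods give the leaf position for QHP (mature leaves at set positions of the shoot) but name only fully expanded leaves for ZSY. Cultivar and leaf position therefore cannot be told apart here.

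Purple color in poplar leaves comes from anthocyanins, which are made from phenylalanine by way of the phenylpropanoid and flavonoid pathways. Chalcone synthase (CHS) opens the flavonoid pathway, hydroxylases (F3H, F3'H, and F3'5'H) decorate the skeleton, dihydroflavonol reductase (DFR) and anthocyanidin synthase (ANS) make the colored anthocyanidin, and glycosyltransferases (UFGT) attach the sugar. Flavonol synthase (FLS) draws the same intermediates off to flavonols. MYB and bHLH proteins are the transcription factors that usually control these genes in plants, and glutathione S-transferases are known in other plants for bringing the finished pigment to the vacuole.

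The values are FPKM, fragment counts scaled to transcript length and library size, of 46170 genes in each library. Of these, 9176 genes were at 0 in all 6 purple libraries. The 3 F_P libraries held 16056300 to 16628923 fragments on annotated genes and the 3 P libraries 16017796 to 16622388, so the depth was nearly the same. Replicates correlated at 0.993 in F_P and at 0.990 to 0.992 in P on log2(FPKM + 1), against 0.963 to 0.967 between F_P and P libraries (across genes, which are not independent replicates). Within a group, fragment counts differed by more than counting noise, with a chi-square per gene of 2.77 to 2.86 in F_P and 3.43 to 6.17 in P, where counting alone gives about 1. Between 23678 and 23690 genes reached 1 FPKM in F_P libraries, and between 24455 and 24522 in P libraries. The groups did not overlap, and the two-sided exact permutation test gave p = 0.10, the smallest value that 3 against 3 libraries allow. The scaling behind the FPKM differed slightly between the groups. The library size behind the deposited FPKM was 0.995 to 1.00 times the fragments on annotated genes in F_P and 1.08 to 1.09 times in P, so that scaling to these fragments moved the median log2 fold change of all genes to -0.11, against -0.00 as deposited. The 10 most abundant genes took 6.09% to 6.23% of the FPKM in F_P and 4.83% to 4.94% in P. The p-values below measure the spread between the 3 biological replicates of each group.

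In total, 24752 genes reached 1 FPKM in 3 or more of the 6 libraries and were tested with limma on log2(FPKM + 1), and 2619 of them (10.6%) were called. A call needed an adjusted p (Benjamini-Hochberg) no greater than 0.05 together with a log2 fold change of 1 or more in either direction. A log2 fold change of 1 stands for a doubling, and on this scale the change of genes with low FPKM is understated. Of the called genes, 1250 (5.05% of those tested) were higher and 1369 (5.53%) were lower in F_P. The median log2 fold change was 1.34 among the higher and -1.40 among the lower genes, and 203 genes were higher and 272 lower by at least 2 on the log2 scale. Of the called genes, 2604 had no overlap between the libraries of the groups, which was also the case for 61.7% of all genes tested. With no minimum fold, 13091 genes (52.9%) passed the adjusted p, 6688 higher and 6403 lower. The genes higher in F_P had a median of 15.99 FPKM in F_P and 4.85 FPKM in P. The genes lower in F_P had a median of 1.54 FPKM in F_P and 7.24 FPKM in P.

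**Figure D1:**
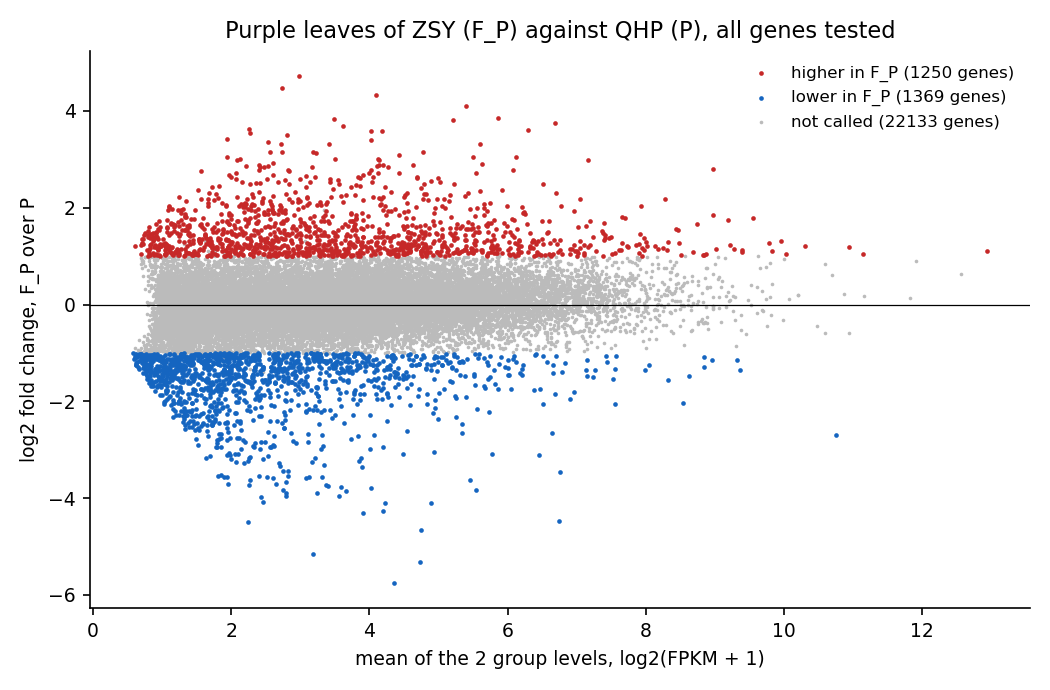
All 24752 genes tested, by the mean of the F_P and P levels on log2(FPKM + 1) (x axis) and by the log2 fold change of F_P over P (y axis). Red points are the 1250 genes called higher in F_P and blue points the 1369 called lower; the points that fall furthest below 0 reach -5.74, while the highest reach 4.72.

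The strongest changes lay outside the pigment pathway. Podel.06G156200 (chromosome 6, 13414674 to 13415579), which carries the nutrient reservoir term (a term used for cupin-type storage proteins), had 1.52, 1.65 and 2.25 FPKM in F_P, against 167, 146 and 134 FPKM in P. It was 82.4-fold higher in P and gave the lowest log2 fold change of all named genes, -5.74 ± 0.12 (SE, adjusted p = 5.91e-08 by limma). Podel.01G371500 (chromosome 1, 38707911 to 38711282), of the nitrogen metabolism list, had 2.69, 3.31 and 3.59 FPKM in F_P, against 154, 176 and 169 FPKM in P (log2 fold change -5.32 ± 0.09). Both genes were abundant in green leaves, with 598 ± 37.2 FPKM in F_G and 2229.9 ± 150.3 FPKM in G for the reservoir gene and 1439 ± 45.3 FPKM in F_G and 4064 ± 257 FPKM in G for the nitrogen gene (SD, n = 3 each). The F_P libraries were thus the lowest of all 12 for both genes.

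The 2 largest increases were in genes for which no function was read from the sources used here. Podel.06G097600 (chromosome 6, 7724857 to 7726876) had 39.7, 38.1 and 40.6 FPKM in F_P, against 0.658, 0.494 and 0.461 FPKM in P (log2 fold change 4.72 ± 0.09). A transcript that is not in the deposited annotation and has no position had 29.4, 30.8 and 30.9 FPKM in F_P, against 0.165, 0.564 and 0.522 FPKM in P (log2 fold change 4.48 ± 0.13). In both, F_P stood far above the other 3 groups, and green leaves of ZSY held 2.89 and 0.894 FPKM on average.

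Of the 37 structural genes of anthocyanin biosynthesis that the study named, 28 passed the filter on low values. The 9 others reached at most 1.43 FPKM in any purple library, and PdeFLS1 was at 0 in all 6. The study chose these genes on the same libraries, so their counts are not independent evidence. Called were 8 of 28, with 5 higher and 3 lower in F_P, beside 10.6% of all genes tested. With no minimum fold, 27 of 28 passed the adjusted p (14 higher and 13 lower), beside 52.9% of all genes. The gene names are those of the study. In its function tables PdeANS3 and PdeFLS4 carry glycosyltransferase terms, and PdeDFR stands in the hormone signalling list, while PdeANS6 carries a hexosyltransferase term and PdeF3'H2 stands in the brassinosteroid list. The enzymes behind these names are uncertain, and other names were not checked against sequence.

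No gene at the head of the pathway was called. PdeCHS2 (Podel.14G153100), the most abundant of the structural genes, had 1064, 1059 and 1036 FPKM in F_P, against 705, 810.1 and 829 FPKM in P. All F_P libraries were above all P libraries, by 1.35-fold (log2 fold change 0.43 ± 0.06, adjusted p = 7.85e-04 by limma), which is under the minimum fold of the calls. PdeCHS1 (Podel.14G152900) had 67.8, 112 and 80.1 FPKM in F_P, against 51.4, 78.4 and 73.6 FPKM in P, and here the groups overlapped (adjusted p = 0.20 by limma). PdeCHS4 (Podel.01G055700) stood the other way with 19.5, 21.8 and 20.7 FPKM in F_P, against 38.0, 44.1 and 41.4 FPKM in P, and its log2 fold change of -0.96 ± 0.07 lay just under the minimum. It passed the minimum when libraries were scaled to their total fragments (-1.07) and without P replicate 1 (-1.01). PdeCHS3 had 49.1 ± 4.05 FPKM in F_P and 69.0 ± 6.03 FPKM in P, and PdeCHS6 had 25.8 ± 1.92 FPKM in F_P and 21.1 ± 1.02 FPKM in P (SD, n = 3 each). No CHS gene was thus called, with 4 of 5 at an unadjusted p under 0.05, and none by limma voom on recovered fragments. PdeCHS1 and PdeCHS2 lie close to each other on chromosome 14 and may share reads.

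Among the hydroxylases, PdeF3'H1, which leads toward cyanidin-type pigments, had 549.8, 526 and 518 FPKM in F_P, against 382, 444 and 439.8 FPKM in P (log2 fold change 0.33 ± 0.06). PdeF3H2 had 29.4, 33.1 and 26.3 FPKM in F_P, against 40.6, 46.9 and 42.8 FPKM in P (log2 fold change -0.54 ± 0.09). The libraries of F_P and P did not overlap for either gene, and neither difference reached the minimum fold. PdeF3'5'H2 (Podel.05G127000), whose enzyme leads toward delphinidin-type pigments, was lower in F_P and was called (log2 fold change -1.17 ± 0.24, adjusted p = 0.0047 by limma). Its level was low in both groups, with 1.35, 0.548 and 1.26 FPKM in F_P, against 2.63, 5.16 and 3.16 FPKM in P. The call was lost without F_P replicate 2 (log2 fold change -0.97) and without P replicate 2 (-0.94). PdeF3'5'H1 did not pass the filter, with 0.034, 0 and 0.033 FPKM in F_P, against 0.188, 0.244 and 0.316 FPKM in P.

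The late genes divided. PdeDFR, the single DFR gene of the list, had 29.9, 30.7 and 32.7 FPKM in F_P, against 29.2, 24.6 and 26.8 FPKM in P (log2 fold change 0.21 ± 0.07, adjusted p = 0.044 by limma). PdeANS3, the most abundant ANS gene, had 46.0, 45.0 and 48.1 FPKM in F_P, against 61.8, 53.6 and 59.5 FPKM in P (log2 fold change -0.32 ± 0.06). Neither difference reached the minimum fold, and they ran in opposite directions. PdeANS1 was higher in F_P and called, with 7.52, 8.84 and 7.80 FPKM in F_P, against 3.23, 2.76 and 2.34 FPKM in P (log2 fold change 1.27 ± 0.12, adjusted p = 8.72e-05 by limma). In FPKM, which is per transcript length, its level was well below that of PdeANS3 in both groups. PdeANS2, which lies close to it on chromosome 4, had 1.90 ± 0.531 FPKM in F_P and 0.952 ± 0.196 FPKM in P, and PdeANS4 and PdeANS5 had 3.92 and 3.52 FPKM in F_P, against 5.75 and 6.20 FPKM in P.

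Of the 3 FLS genes tested, 1 was called. PdeFLS4 (chromosome 7, 15689992 to 15691517) had 68.1, 66.8 and 67.8 FPKM in F_P, against 17.8, 14.3 and 16.5 FPKM in P, 4.17-fold higher in F_P (log2 fold change 2.00 ± 0.08, adjusted p = 8.25e-07 by limma). PdeFLS2 had 62.0, 65.4 and 62.9 FPKM in F_P, against 114, 117 and 116 FPKM in P (log2 fold change -0.86 ± 0.04), under the minimum fold although the libraries did not overlap. The summed level of the 4 FLS genes was 133 to 135 FPKM in F_P libraries and 133 to 134 FPKM in P libraries. This near-equal sum rests on PdeFLS4, which carries glycosyltransferase terms, so it need not measure flavonol synthase. PdeFLS2, which stands in the flavonoid list, was lower in F_P. In green leaves ZSY was likewise above the other cultivar for PdeFLS4 and below it for PdeFLS2, with 32.5 ± 2.24 FPKM in F_G and 6.22 ± 0.514 FPKM in G for PdeFLS4 and 17.5 ± 0.705 FPKM in F_G and 105 ± 7.29 FPKM in G for PdeFLS2.

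UFGT genes, which add the sugar to anthocyanidins, were the largest family tested, and 5 of 9 were called, beside 10.6% of all genes tested. Higher in F_P were PdeUFGT3, PdeUFGT4, and PdeUFGT11. PdeUFGT3 had 9.38, 12.1 and 11.2 FPKM in F_P, against 0.409, 0.332 and 0.758 FPKM in P, a 21.8-fold difference (log2 fold change 2.99 ± 0.15, adjusted p = 3.01e-06 by limma). PdeUFGT11 had 9.12, 11.1 and 14.8 FPKM in F_P, against 0.573, 1.76 and 1.38 FPKM in P (log2 fold change 2.52 ± 0.24). Both genes were low in QHP. PdeUFGT4 was more abundant, with 64.5, 64.0 and 68.4 FPKM in F_P, against 28.1, 31.4 and 27.8 FPKM in P (log2 fold change 1.15 ± 0.06). Lower in F_P were PdeUFGT6, with 1.45, 1.91 and 1.25 FPKM in F_P, against 5.23, 5.71 and 6.52 FPKM in P (log2 fold change -1.43 ± 0.14), and PdeUFGT10 (Podel.09G098100), with 7.07, 7.54 and 7.74 FPKM in F_P, against 15.1, 16.6 and 17.4 FPKM in P (log2 fold change -1.04 ± 0.08). The call of PdeUFGT10 was lost without P replicate 3 (log2 fold change -0.99). The 2 most abundant members, PdeUFGT5 and PdeUFGT9, are neighbours on chromosome 7 and differed by less than the minimum fold. PdeUFGT5 had 187 ± 5.09 FPKM in F_P and 131 ± 6.94 FPKM in P, and PdeUFGT9 had 160.2 ± 3.96 FPKM in F_P and 124 ± 6.22 FPKM in P (SD, n = 3 each). Neighbouring UFGT genes may share reads.

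**Figure D2:**
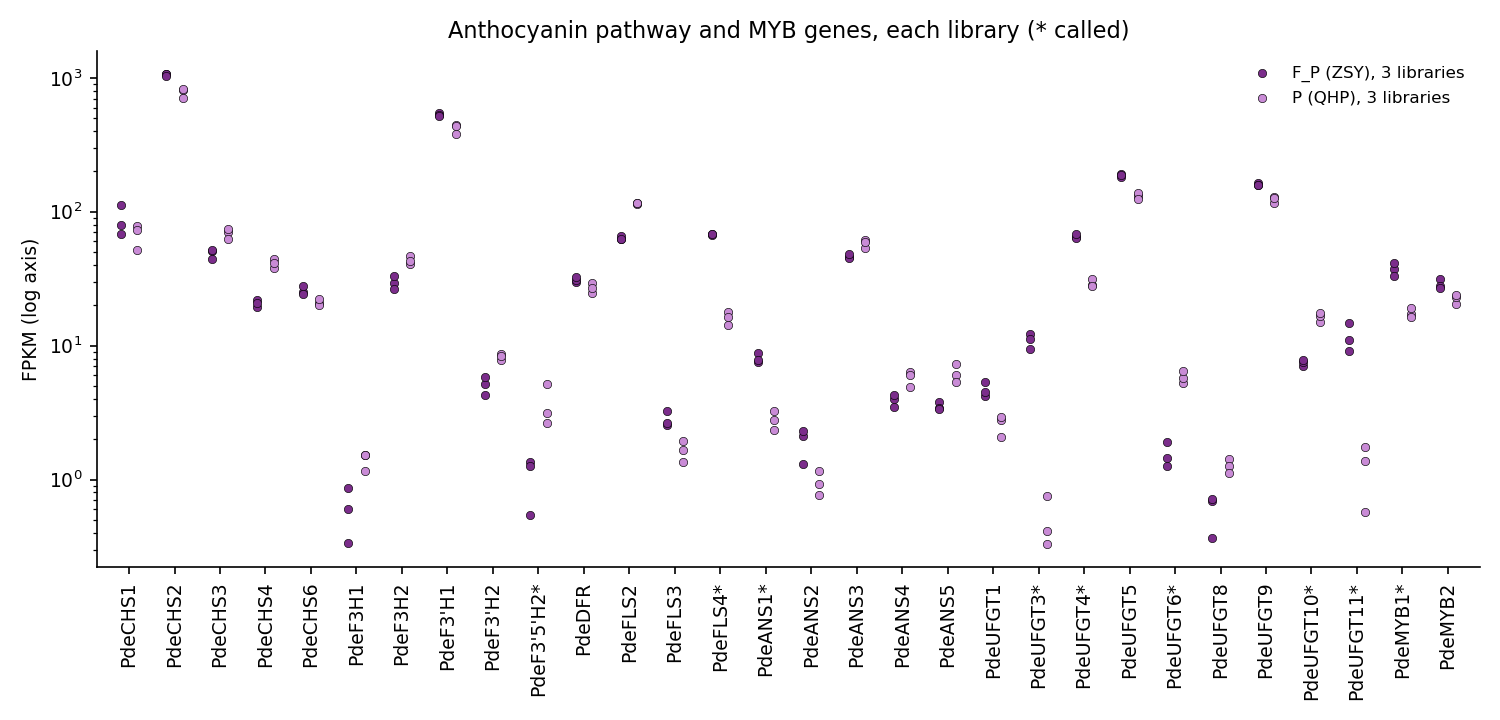
FPKM on a log axis (y) of each tested structural gene and of PdeMYB1 and PdeMYB2 (x), with the 3 F_P libraries (dark) left of the 3 P libraries (light); an asterisk marks a called gene. PdeCHS2 stands at 1036 FPKM and above in F_P and at 829 FPKM and below in P, whereas PdeUFGT3 separates the groups by 21.8-fold at a low level.

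Among the transcription factors, PdeMYB1 (Podel.04G021100, chromosome 4, 1528728 to 1529923), an R2R3-MYB that the study set beside the anthocyanins, had 37.6, 33.3 and 41.7 FPKM in F_P, against 17.3, 19.04 and 16.4 FPKM in P. It was 2.14-fold higher in F_P and passed the minimum fold narrowly (log2 fold change 1.05 ± 0.09, adjusted p = 5.17e-05 by limma). The call was lost without F_P replicate 3 (log2 fold change 0.97) and when libraries were scaled to their total fragments (0.94). PdeMYB2 had 31.3, 28.0 and 27.0 FPKM in F_P, against 20.3, 23.0 and 23.9 FPKM in P (log2 fold change 0.35 ± 0.08). This difference was under the minimum fold, and green leaves held 113 ± 12.1 FPKM in F_G and 106 ± 7.87 FPKM in G.

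The study's correlation tables hold 11 MYB genes, PdeMYB1 among them, and 11 bHLH genes, with correlations to anthocyanins of either sign. All 11 MYB genes were tested, and 1 was higher (beside 5.05% of all genes tested) and 4 were lower (beside 5.53%) in F_P. Of the bHLH genes, 8 were tested, and 3 were lower in F_P. Both lists were chosen by the study on these samples and are not independent evidence. Podel.09G121500 (chromosome 9, 10141045 to 10142580) was nearly silent in ZSY purple leaves, with 0.08, 0.079 and 0 FPKM in F_P, against 13.98, 12.5 and 7.65 FPKM in P, and the log2 fold change of -3.52 ± 0.21 was the lowest of the MYB genes. Podel.07G028800, the most abundant of the 3 named MYB genes, had 48.1, 46.4 and 48.3 FPKM in F_P, against 141, 169.8 and 175 FPKM in P (log2 fold change -1.74 ± 0.08). Podel.06G163300 had 1.60, 1.99 and 3.64 FPKM in F_P, against 8.81, 8.83 and 9.40 FPKM in P (log2 fold change -1.60 ± 0.20). For all 3 the mean of both green groups was above that of both purple groups, with 102 ± 6.36 FPKM in F_G and 113 ± 18.9 FPKM in G for Podel.09G121500.

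The named bHLH genes followed the same order of the purple groups. Podel.04G160100 had 0.403, 1.07 and 0.871 FPKM in F_P, against 5.49, 7.71 and 6.72 FPKM in P (log2 fold change -2.11 ± 0.18), and Podel.09G122300 had 0.810, 0.186 and 0.329 FPKM in F_P, against 2.81, 2.80 and 2.27 FPKM in P (log2 fold change -1.35 ± 0.19). Podel.03G099000 was listed at 0 in all 3 F_P libraries, against 1.21, 1.69 and 1.67 FPKM in P, and had 12.1 ± 2.62 FPKM in F_G and 56.9 ± 6.04 FPKM in G. When a P replicate was left out, 4 (replicate 1) or 5 (replicates 2 and 3) of the 8 MYB and bHLH genes were called, with 15 genes passing the filter. The filter still asked for 1 FPKM in 3 libraries, so genes at that level in P alone could not pass. Part of this loss was thus set by the filter and does not measure dependence on a replicate.

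The next groups are pathway and function lists, made of the gene IDs that could be read in the study's KEGG and GO tables. Those tables hold genes that the study had called between purple and green leaves, including these F_P and P libraries, and parts of them are cut. The counts over a list are therefore a description, and a share above 10.6% is no result about the list. Each count stands beside all genes tested, of which 5.05% were higher and 5.53% lower in F_P. The 31 lists hold 724 different tested genes, of which 194 were called, 82 higher and 112 lower in F_P. From each list the called genes with the highest and the lowest log2 fold change are named, among those whose groups did not overlap and whose higher group averaged 10 FPKM or more.

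Glutathione metabolism, the list that includes the glutathione S-transferases, gave the most genes higher in F_P. Of 42 tested members, 15 were higher and 4 were lower, and the median log2 fold change over all members was 0.66, beside -0.00 over all genes tested. The summed level of the list was 6025 to 6092 FPKM in F_P libraries and 2301 to 2339 FPKM in P libraries. Podel.19G131100 (chromosome 19, 15237417 to 15238561) had 75.7, 74.4 and 77.1 FPKM in F_P, against 2.35, 3.28 and 2.92 FPKM in P, 26.6-fold higher in F_P (log2 fold change 4.32 ± 0.09, adjusted p = 7.53e-08 by limma). Its neighbour Podel.19G131300 had 371, 386 and 377 FPKM in F_P, against 26.3, 28.9 and 26.0 FPKM in P (log2 fold change 3.76 ± 0.05). The most abundant member, Podel.08G198800 (chromosome 8, 14127409 to 14128612), had 1353, 1313 and 1312 FPKM in F_P, against 201, 188 and 179 FPKM in P (log2 fold change 2.80 ± 0.05). Podel.16G087000 had 149.97, 153 and 153 FPKM in F_P, against 14.2, 13.9 and 15.02 FPKM in P (log2 fold change 3.31 ± 0.05), with 82.1 ± 3.19 FPKM in F_G and 108 ± 1.78 FPKM in G, so that here P stood below the other 3 groups. These last 3 genes were chosen after their values were seen. For the 2 chromosome 19 genes and Podel.08G198800, F_P was the highest of the 4 groups, and Podel.08G198800 had 181 ± 26.0 FPKM in F_G and 61.2 ± 9.88 FPKM in G. The lowest log2 fold change was in Podel.02G014600, with 2.30, 2.69 and 3.08 FPKM in F_P, against 13.6, 12.8 and 14.1 FPKM in P (log2 fold change -1.98 ± 0.11). Green leaves held 2.66 ± 0.746 FPKM in F_G and 508 ± 67.9 FPKM in G. Near-identical copies are common in this gene family, so reads may be divided among neighbours.

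Lists of the phenylpropanoid route were divided. Of 43 tested members of phenylpropanoid biosynthesis, 13 were higher and 12 lower in F_P. Of 30 of flavonoid biosynthesis, 5 were higher and 6 lower, and of 13 of stilbenoid, diarylheptanoid, and gingerol biosynthesis, 5 were higher and 2 lower. The 3 lists overlap, and 3 of the higher genes stand in all of them. Podel.19G131500, chosen after its values were seen, was the most abundant of these, with 471, 466 and 463 FPKM in F_P, against 178, 231 and 229.7 FPKM in P (log2 fold change 1.14 ± 0.09). Another, Podel.03G198600 (chromosome 3, 19758571 to 19762830), had 250.3, 236 and 241 FPKM in F_P, against 61.5, 64.2 and 63.9 FPKM in P (log2 fold change 1.92 ± 0.04). The summed level of the flavonoid list was 3259 to 3344 FPKM in F_P libraries and 2433 to 2715 FPKM in P libraries, whereas its median log2 fold change was -0.57. The sum counts abundant members such as PdeCHS2 most, and the median counts each member once. Among flavonoid list members that averaged 10 FPKM or more in a group, Podel.01G119500 stood lowest (log2 fold change -1.85 ± 0.08). It had 9.94, 8.33 and 9.09 FPKM in F_P, against 33.4, 36.8 and 35.9 FPKM in P. Podel.19G001700 had a lower log2 fold change, -1.92, but averaged only 4.09 FPKM in P. Podel.01G468500 stood highest of the phenylpropanoid list, with 40.3, 40.2 and 39.6 FPKM in F_P, against 5.58, 5.77 and 4.40 FPKM in P (log2 fold change 2.72 ± 0.09).

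The phenylpropanoid list holds many peroxidases, and 8 called genes stand in both lists. Peroxidases oxidise phenolic compounds in the cell wall, among other roles. Of 16 tested members of the peroxidase list, 8 were lower and 1 was higher in F_P. Podel.04G013500 (chromosome 4, 917970 to 919944) had 36.4, 39.2 and 40.6 FPKM in F_P, against 210.5, 273 and 263 FPKM in P (log2 fold change -2.64 ± 0.10), and green leaves held 734 ± 35.3 FPKM in F_G and 1807 ± 21.2 FPKM in G. The most abundant lower member, Podel.13G197000, chosen after its values were seen, had 188, 188 and 179 FPKM in F_P, against 530.0, 548 and 555 FPKM in P (log2 fold change -1.55 ± 0.04). The single higher member, Podel.18G131000, had 38.0, 38.3 and 38.5 FPKM in F_P, against 16.8, 16.6 and 18.4 FPKM in P (log2 fold change 1.11 ± 0.06), and its call was lost when libraries were scaled to their total fragments (0.99).

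Among cell wall genes, most calls were lower in F_P. Xyloglucan:xyloglucosyl transferases, which cut and rejoin xyloglucan chains in growing walls, had 9 of 14 tested members lower and 1 higher, with a median log2 fold change of -1.55. Podel.19G124000 had 0.753, 0.708 and 0.963 FPKM in F_P, against 12.2, 13.6 and 12.2 FPKM in P (log2 fold change -2.92 ± 0.11). The most abundant member, Podel.07G010600, which was chosen after its values were seen, had 182, 188 and 177 FPKM in F_P, against 695, 791 and 765 FPKM in P (log2 fold change -2.03 ± 0.05). The summed level of the list was 397 to 402 FPKM in F_P libraries and 1259.7 to 1351 FPKM in P libraries. Each of the 9 lower members had a higher mean in F_G than in F_P. This order is not particular to the list. All genes called lower in F_P had a median of 1.54 FPKM in F_P and 7.98 FPKM in F_G.

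Other wall lists were smaller or divided. Pectinesterases remove methyl groups from pectin, and 5 of 18 tested members were lower and 2 higher. Podel.14G158100 had 18.5, 17.3 and 17.6 FPKM in F_P, against 162, 156 and 158 FPKM in P (log2 fold change -3.09 ± 0.05), whereas Podel.11G019700 had 109, 111 and 107 FPKM in F_P, against 24.1, 22.6 and 28.3 FPKM in P (log2 fold change 2.09 ± 0.08). Of 13 tested members of the cellulose synthase list, 4 were lower and 2 higher, with Podel.18G108400 at 1.04, 0.986 and 1.06 FPKM in F_P, against 13.5, 13.2 and 13.6 FPKM in P (log2 fold change -2.83 ± 0.09). Chitinases had 3 of 9 tested members lower and 1 higher. Podel.10G143200, the lowest of these, had 3.96, 3.20 and 3.48 FPKM in F_P, against 72.3, 82.9 and 74.7 FPKM in P (log2 fold change -4.09 ± 0.08), at which F_P was again the lowest of the 4 groups.

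The nutrient reservoir list was the furthest from 0, with 6 of 8 tested members lower in F_P and a median log2 fold change of -3.18. Its summed level was 43.2 to 45.3 FPKM in F_P libraries, 567 to 625 FPKM in P libraries, and 1281 to 1453 FPKM in F_G libraries. Besides Podel.06G156200 above, Podel.03G068100 had 31.98, 30.9 and 32.6 FPKM in F_P, against 385, 345 and 347 FPKM in P (log2 fold change -3.45 ± 0.05); it was chosen after its values were seen.

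**Figure D3:**
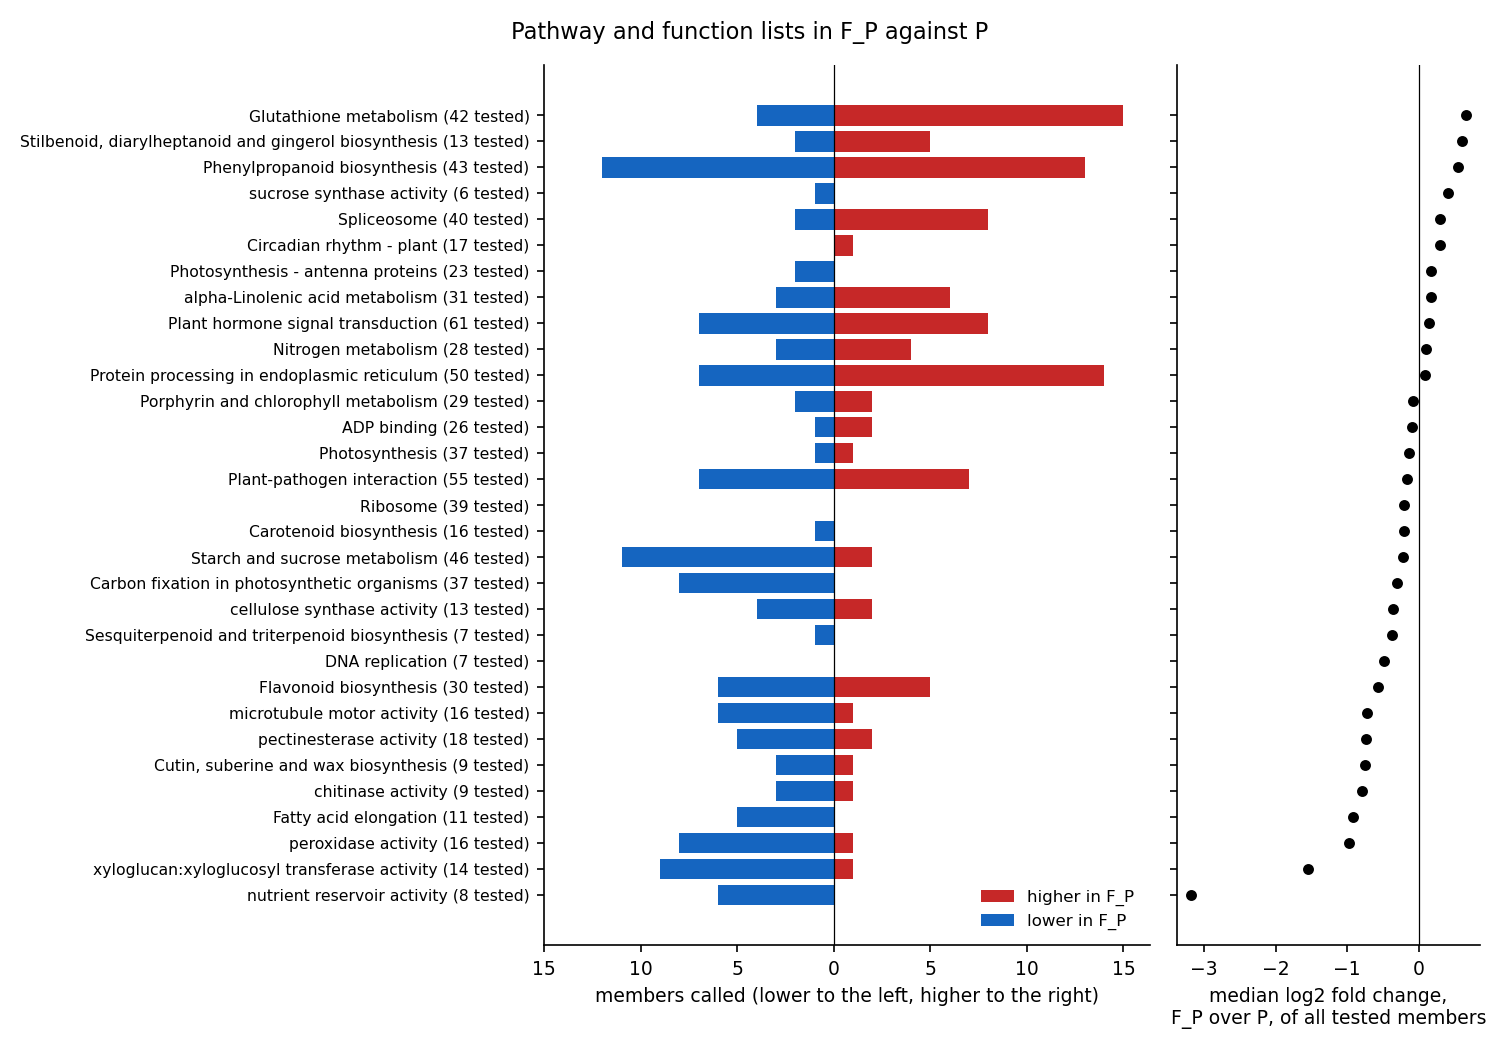
The left panel gives, for each of the 31 lists, the number of members called lower (blue, to the left) and higher (red, to the right) in F_P, with the number tested beside the name. The right panel gives the median log2 fold change of F_P over P over all tested members, from -3.18 in the nutrient reservoir list to 0.66 in glutathione metabolism.

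Lists that mark the leaf's cells were measured in the same way. The antenna proteins that gather light in chloroplasts were plentiful in all purple libraries, with a summed level of 7392 to 7604 FPKM in F_P and 6131 to 6557 FPKM in P. Of 23 members, 2 were called, both lower, whereas 17 had a log2 fold change above 0 and 6 below 0 (median 0.17). The carbon fixation list summed to 3708 to 3814 FPKM in F_P and 4849 to 5348 FPKM in P, and 8 of its 37 tested members were called, all lower. Both lists were thus abundant, as they are in leaves, but their sums were higher in green leaves. The antenna list summed to 9340 to 10910 FPKM in F_G and 20767 to 23791 FPKM in G. The carbon fixation list summed to 12216 to 14715 FPKM in F_G and 27554 to 33543 FPKM in G. DNA replication genes, which mark dividing cells, passed the filter in 7 of 25 cases, and none was called by limma, with 3 at an unadjusted p under 0.05 and none called by voom. Of the 25, 3 were at 0 in all F_P libraries and 1 was at 0 in all P libraries. Their summed level was 105 to 111 FPKM in F_P and 133 to 143 FPKM in P. Microtubule motors, which move chromosomes in dividing cells among other roles, summed to 58.1 to 61.4 FPKM in F_P and 111 to 115 FPKM in P, with 6 of 16 tested members lower, 1 higher, and none of the 36 at 0 in a whole group. Podel.01G434000, the lowest of these, had 0.555, 0.829 and 0.466 FPKM in F_P, against 13.3, 12.9 and 13.9 FPKM in P (log2 fold change -3.16 ± 0.12). Both sums were below those of all P libraries in every F_P library, as was that of the xyloglucan:xyloglucosyl transferases, and their part in the cell wall results was not tested. In whole leaves, fewer cells of a type and less RNA per cell cannot be told apart.

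Calls in the photosynthesis and other pigment lists are given beside the 10.6% of all genes tested that were called. Of 37 tested members of the photosynthesis list, 1 was higher and 1 lower in F_P. The higher member, Podel.01G460200, had 50.002, 50.2 and 50.5 FPKM in F_P, against 11.6, 12.5 and 10.8 FPKM in P (log2 fold change 2.02 ± 0.06). Of 29 tested members of porphyrin and chlorophyll metabolism, 2 were higher and 2 lower, with Podel.01G119000 at 10.9, 12.1 and 11.8 FPKM in F_P, against 3.42, 3.16 and 1.86 FPKM in P and Podel.01G267400 at 2.98, 2.88 and 2.94 FPKM in F_P, against 11.3, 10.5 and 9.84 FPKM in P. Of 16 carotenoid genes tested, 1 was lower. Of 23 antenna genes, Podel.08G050100 had the lowest log2 fold change, -1.22 ± 0.07, with 17.4, 16.4 and 14.8 FPKM in F_P, against 40.7, 37.4 and 38.9 FPKM in P. In carbon fixation, Podel.01G144100 had 3.21, 4.15 and 4.19 FPKM in F_P, against 14.8, 17.2 and 14.3 FPKM in P (log2 fold change -1.76 ± 0.12). In green leaves it had 50.3 ± 0.832 FPKM in F_G and 133 ± 4.68 FPKM in G.

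Protein processing in the endoplasmic reticulum, a KEGG list that also holds chaperones, had 14 members higher and 7 lower of 50 tested. Podel.12G026700 (chromosome 12, 2199819 to 2200890) was the lowest, with 23.9, 21.3 and 20.6 FPKM in F_P, against 523, 492 and 499.9 FPKM in P, 23.0-fold higher in P (log2 fold change -4.47 ± 0.06, adjusted p = 1.62e-08 by limma). In green leaves it had 6.55 ± 1.24 FPKM in F_G and 1.38 ± 0.450 FPKM in G. Podel.06G216500 had 11.4, 11.2 and 11.8 FPKM in F_P, against 118, 174 and 171 FPKM in P, and Podel.01G249400 had 3.00, 4.41 and 4.38 FPKM in F_P, against 38.9, 42.7 and 47.8 FPKM in P; both were chosen after their values were seen. In all 7 lower members of the list, every P library was above all 9 other libraries of the study. F_P was not at the green level in the named lower members, where it was above both green groups. Podel.06G216500 had 0.539 ± 0.494 FPKM in F_G and 0.385 ± 0.110 FPKM in G, and Podel.01G249400 had 0.408 ± 0.407 FPKM in F_G and 0.197 ± 0.341 FPKM in G. For the remaining lower members, F_P was not set against green leaves. The higher member Podel.16G003200 showed another order, which was not counted over the other higher members. Podel.16G003200 had 21.0, 20.3 and 19.8 FPKM in F_P, against 2.80, 2.64 and 2.60 FPKM in P (log2 fold change 2.53 ± 0.08), and green leaves held 18.9 ± 1.10 FPKM in F_G and 14.6 ± 2.25 FPKM in G, so that P was the lowest group. Podel.10G250000, the most abundant higher member and chosen after its values were seen, had 673, 662 and 644 FPKM in F_P, against 138, 154 and 142 FPKM in P (log2 fold change 2.18 ± 0.05). Of the 8 spliceosome genes higher in F_P, 4 stand in this list too, and the named member of that list, Podel.10G211400, had 29.3, 26.8 and 26.7 FPKM in F_P, against 3.25, 4.35 and 3.82 FPKM in P (log2 fold change 2.58 ± 0.10).

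Signalling and defence lists held changes in both directions, as did all genes tested, of which 5.05% were higher and 5.53% lower in F_P. Of 61 tested genes of plant hormone signal transduction, 8 were higher and 7 lower in F_P. Podel.14G143100 (chromosome 14, 10423893 to 10426440) had 66.6, 67.9 and 63.8 FPKM in F_P, against 7.30, 8.30 and 8.94 FPKM in P (log2 fold change 2.87 ± 0.08), whereas Podel.09G095400 had 8.26, 7.80 and 7.33 FPKM in F_P, against 36.7, 29.7 and 32.9 FPKM in P (log2 fold change -1.95 ± 0.09). Of 55 tested genes of plant-pathogen interaction, 7 were higher and 7 lower, with Podel.02G001400 at 30.3, 32.4 and 26.7 FPKM in F_P, against 86.5, 91.3 and 87.9 FPKM in P (log2 fold change -1.54 ± 0.07). Podel.01G307000, which stands in both of these lists and was chosen after its values were seen, had 134, 128 and 135 FPKM in F_P, against 43.1, 51.1 and 46.1 FPKM in P (log2 fold change 1.49 ± 0.06). The ADP binding list had 2 higher and 1 lower of 26 tested. Podel.01G144500 had 33.0, 32.6 and 36.0 FPKM in F_P, against 13.4, 17.0 and 13.6 FPKM in P (log2 fold change 1.16 ± 0.10), and Podel.19G103200 had 44.1, 43.6 and 47.1 FPKM in F_P, against 105, 93.3 and 97.3 FPKM in P (log2 fold change -1.12 ± 0.06). Of 17 genes of the circadian rhythm list, 1 was called, Podel.08G156700, with 127, 130.2 and 123 FPKM in F_P, against 53.0, 51.3 and 48.7 FPKM in P (log2 fold change 1.30 ± 0.05). It averaged close to the P level in green leaves, with 57.9 ± 4.46 FPKM in F_G and 55.6 ± 1.23 FPKM in G.

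Carbohydrate and lipid lists held these calls, beside the 10.6% of all genes tested that were called. Of 46 tested genes of starch and sucrose metabolism, 11 were lower and 2 higher. Podel.09G160500 had 2.89, 2.93 and 3.61 FPKM in F_P, against 10.7, 12.5 and 10.3 FPKM in P (log2 fold change -1.55 ± 0.11), and Podel.18G100700 had 34.3, 31.8 and 30.6 FPKM in F_P, against 11.1, 12.2 and 10.9 FPKM in P (log2 fold change 1.42 ± 0.07). In the sucrose synthase list, 1 of 6 tested genes was called, Podel.06G150300, with 8.67, 8.85 and 9.34 FPKM in F_P, against 29.4, 27.4 and 27.6 FPKM in P (log2 fold change -1.55 ± 0.06). Fatty acid elongation, which supplies surface waxes, had 5 of 11 tested genes lower, and all 11 had a log2 fold change below 0 (median -0.91). Podel.10G209400 had 6.70, 6.33 and 6.27 FPKM in F_P, against 15.8, 16.5 and 16.4 FPKM in P (log2 fold change -1.21 ± 0.07). The cutin, suberine, and wax list had 3 lower and 1 higher of 9 tested, with Podel.19G078000 at 12.1, 13.6 and 12.2 FPKM in F_P, against 37.8, 37.1 and 39.8 FPKM in P and Podel.05G233000 at 94.2, 97.4 and 95.8 FPKM in F_P, against 30.2, 27.4 and 30.3 FPKM in P.

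Beside the 10.6% of all genes tested that were called, nitrogen metabolism had 4 genes higher and 3 lower of 28 tested. Besides Podel.01G371500 above, Podel.12G090900 had 87.1, 90.1 and 84.1 FPKM in F_P, against 30.2, 31.0 and 29.8 FPKM in P (log2 fold change 1.49 ± 0.05), and green leaves held 15.8 ± 1.67 FPKM in F_G and 3.46 ± 0.798 FPKM in G. In alpha-linolenic acid metabolism, from which jasmonate is made, 6 genes were higher and 3 lower of 31 tested. Podel.04G218100 had 21.2, 22.2 and 19.9 FPKM in F_P, against 7.86, 5.57 and 4.93 FPKM in P (log2 fold change 1.65 ± 0.14), and Podel.08G248900 had 3.88, 3.15 and 4.27 FPKM in F_P, against 14.1, 14.2 and 14.7 FPKM in P (log2 fold change -1.69 ± 0.11). Of 7 tested sesquiterpenoid and triterpenoid genes, 1 was lower. None of 39 tested ribosome genes was called by limma, with 24 at an unadjusted p under 0.05 and 2 called by voom.

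**Figure D4:**
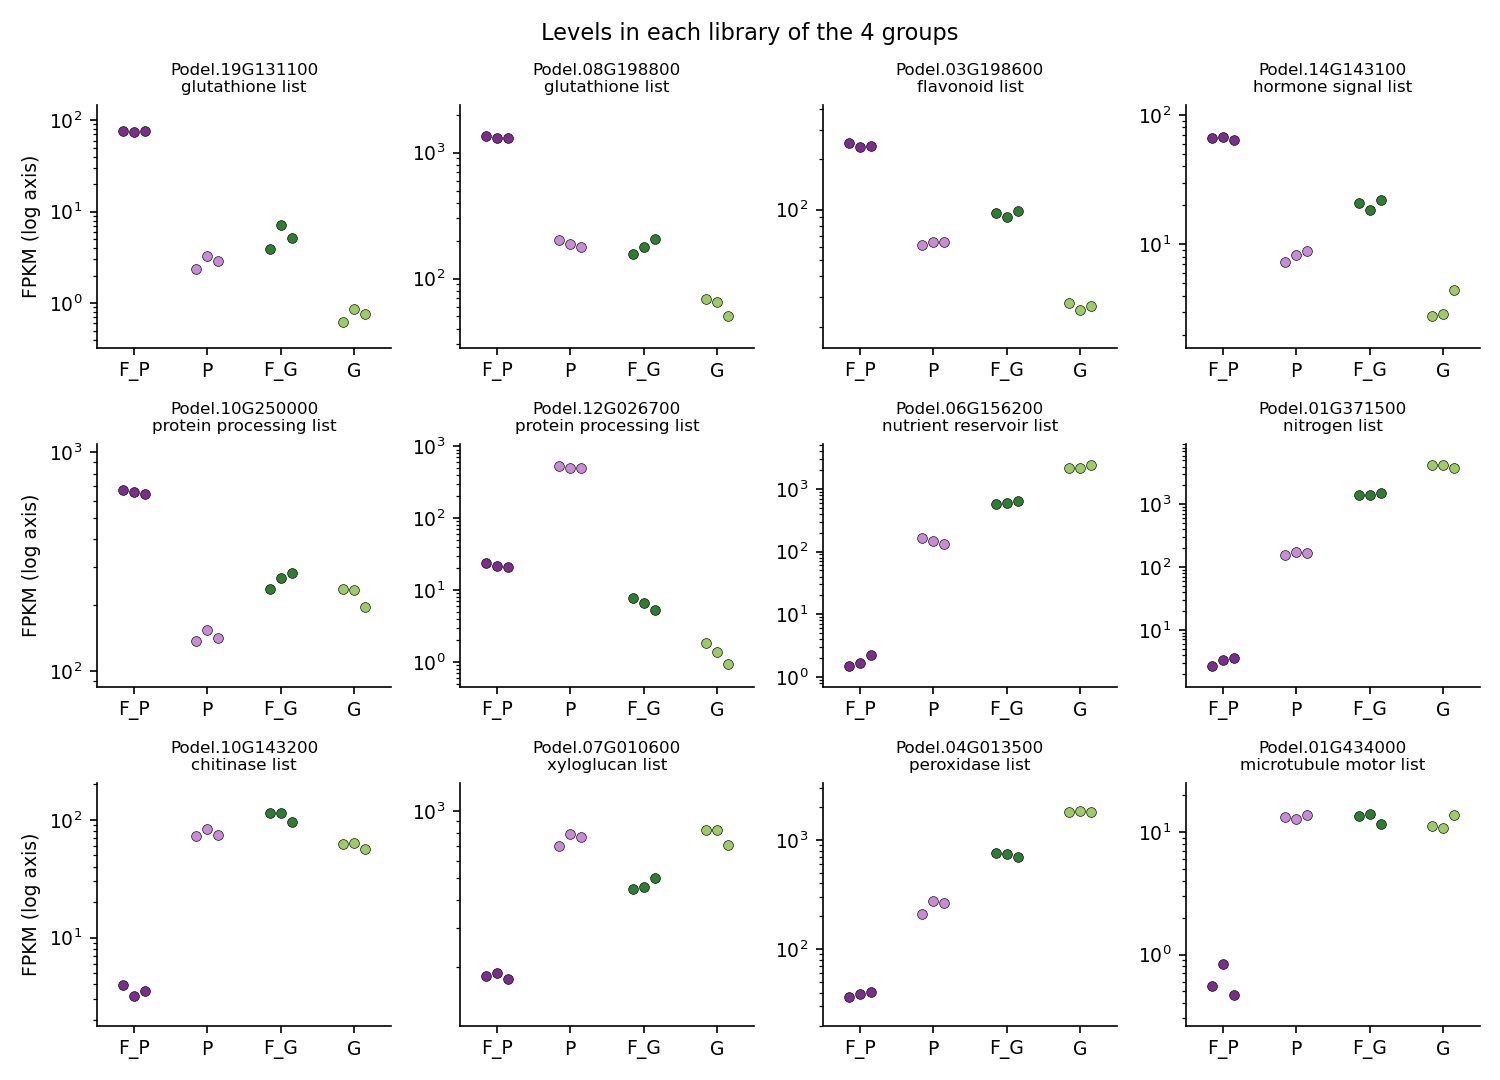
FPKM on a log axis in each of the 3 libraries of F_P, P, F_G, and G (x) for 12 genes of the lists, some of them chosen after their values were seen. In Podel.06G156200 and Podel.01G371500 F_P lies lowest and G highest, whereas Podel.12G026700 is highest in P at 492 FPKM and above and Podel.19G131100 is highest in F_P at 74.4 FPKM and above.

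Some genes were found in the purple leaves of one cultivar only, as far as the depth shows. At least 1 FPKM in all 3 libraries of one group and 0 in all 3 of the other was found for 3 genes in F_P and for 13 in P. The 3 in F_P reached a mean of at most 1.81 FPKM. The highest of the 13 in P was Podel.06G066700 (chromosome 6, 4992993 to 4993620), which was listed at 0 in all F_P libraries, against 18.9, 24.8 and 20.8 FPKM in P. Green leaves of ZSY, the same cultivar, held 313, 306 and 247 FPKM of it. Of the 13 genes, 8 had at least 1 FPKM in all 3 F_G libraries and 10 in all 3 G libraries. Podel.01G267100 was likewise at 0 in F_P, with 4.12, 4.40 and 3.44 FPKM in P and 26.9, 29.2 and 25.2 FPKM in F_G. No function was read for either gene, and both were chosen after their values were seen. When a mean under 0.1 FPKM was taken in place of 0, the counts were 22 in F_P and 79 in P, and with a minimum of 5 FPKM they were 0 and 1.

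The called genes were spread over all 19 chromosomes, from 8.19% of the tested genes on chromosome 18 to 14.5% on chromosome 19, beside 10.6% of all. Genes higher in F_P made up 8.01% of chromosome 19 and 8.90% of the unplaced scaffolds, beside 5.05% of all. Runs of at least 3 neighbouring tested genes called in the same direction were counted along the deposited annotation, whose build is not named in it. There were 31 runs of higher genes, holding 110 genes, and 14 runs of lower genes, holding 46 genes. The longest runs of lower genes had 4 genes.

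The longest run of higher genes had 11 genes on chromosome 19 (503274 to 554600), and 9 of them carry the flavin adenine dinucleotide binding term of flavin-dependent oxidoreductases. The 11 genes had means of 2.88 to 77.6 FPKM in F_P and 0.034 to 8.50 FPKM in P. The most abundant of them, Podel.19G005300, which was chosen after its values were seen, had 75.2, 76.6 and 81.0 FPKM in F_P, against 4.17, 10.1 and 11.2 FPKM in P (log2 fold change 3.14 ± 0.29). The second run had 6 genes on chromosome 10 (7546773 to 7566955), 3 of them of the glutathione metabolism list, with means of 6.09 to 51.3 FPKM in F_P and 0.439 to 5.85 FPKM in P. In all, 9 of the 15 higher glutathione genes lay in such runs, beside 110 of all 1250 genes higher in F_P. Podel.14G038600 (chromosome 14, 2870315 to 2872740), which carries a heme binding and oxidoreductase term and lies in a run of 4 genes on chromosome 14, had 268, 274 and 275 FPKM in F_P, against 19.6, 22.3 and 23.0 FPKM in P (log2 fold change 3.60 ± 0.06). A run of 4 genes at 15237417 to 15254182 on chromosome 19 starts at Podel.19G131100 and ends at Podel.19G131500, and holds 2 genes of the glutathione list, Podel.19G131400, which is in neither list, and Podel.19G131500 of the flavonoid list. Podel.08G198800 lies in a run of 3 glutathione genes on chromosome 8 (14122939 to 14132880), with Podel.08G198700 at 1084, 1057 and 1076 FPKM in F_P, against 318, 319 and 316 FPKM in P (log2 fold change 1.75 ± 0.03). Both Podel.08G198700 and Podel.14G038600 were chosen after their values were seen. Neighbouring copies of a gene can share reads, which was not measured here.

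**Figure D5:**
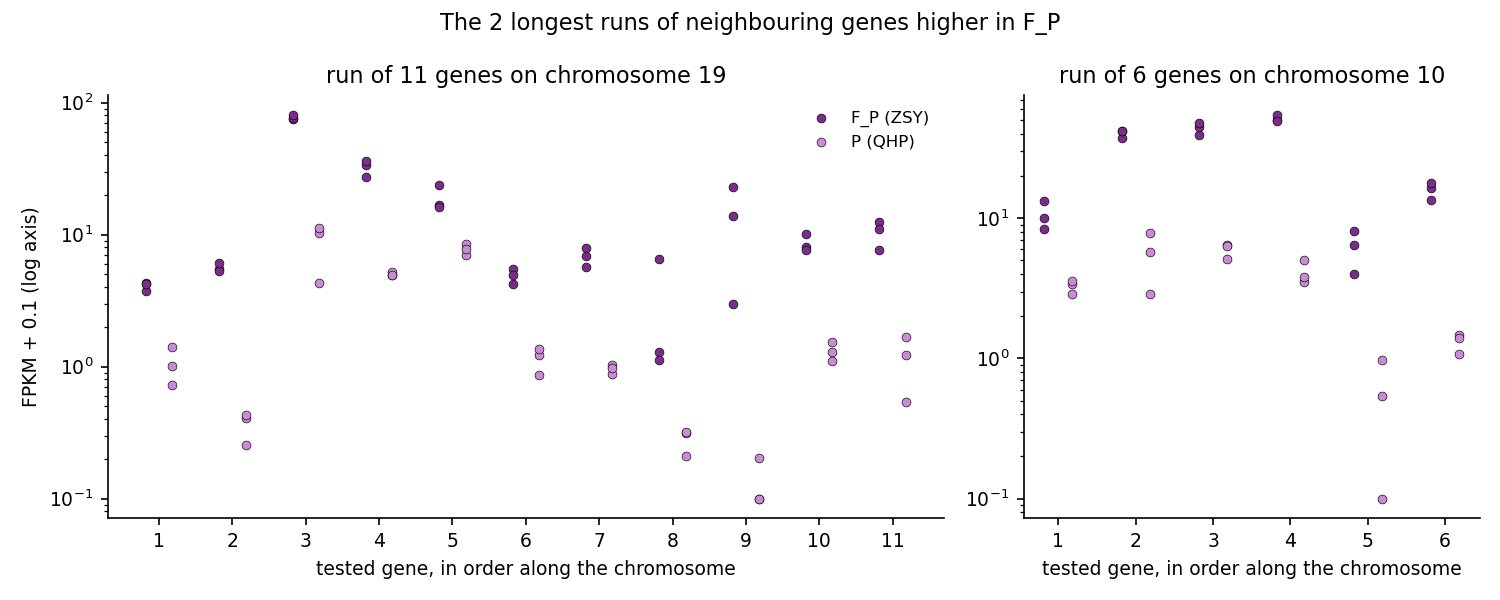
FPKM + 0.1 on a log axis (y) of the tested genes in the 2 longest runs, in their order along the chromosome (x), with the 3 F_P libraries (dark) left of the 3 P libraries (light). All 11 genes on chromosome 19 and all 6 on chromosome 10 are higher in F_P, with P means of at most 8.50 and 5.85 FPKM.

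The same cultivar, ZSY, was also sampled as green leaves, and F_G vs. G shares no library with F_P vs. P. The cultivar on the other side is L2025 there and QHP here. In F_G vs. G, 5332 of 26789 genes (19.9%) were called, 2506 higher (9.35%) and 2826 lower (10.5%) in F_G. Of the genes higher in F_P that were tested in both, 452 were also higher in F_G, which is 40.7% of the F_P vs. P list and 19.2% of the F_G vs. G list. Of the genes lower in F_P, 409 were also lower in F_G, which is 31.2% and 24.3% of the lists. Among all genes tested in both, 9.97% were higher and 7.12% lower in F_G. The opposite direction was found for 53 of the genes higher in F_P (4.77%, beside 7.12% of all genes tested in both). It was also found for 132 of the genes lower in F_P (10.1%, beside 9.97% of all), which is near the share of all genes.

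The difference between both contrasts was tested in 1 fit of all 12 libraries, and 5728 of 28339 genes (20.2%) differed at the same thresholds. PdeMYB1 and PdeFLS4 had log2 fold changes above 0 on both sides. The log2 fold change of F_G over G was 0.96 in PdeMYB1 and 2.21 in PdeFLS4, and the difference between the contrasts was 0.09 for PdeMYB1 (adjusted p = 0.64) and -0.21 for PdeFLS4 (adjusted p = 0.18 by limma). Such p-values do not show that the cultivar differences were equal, and 0.96 is under the minimum fold. PdeANS1 differed between the contrasts, with a difference of 2.25 (adjusted p = 2.46e-05 by limma), where the log2 fold change of F_G over G was -0.99. PdeF3'5'H2 differed the other way, with a difference of -2.77 (adjusted p = 9.86e-05 by limma).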

How the data were processed

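Leaves of 4 groups with 3 libraries each were sequenced as paired-end mRNA libraries. The authors aligned reads with HISAT2, assembled them with StringTie, and deposited FPKM per gene. The study's methods name an NCBI assembly of P. deltoides for the mapping, while the deposited annotation names no build. Tool versions, the counting tool, and the strand setting were not stated. Differential genes were also called by the authors with DESeq; none of their fold changes or p-values was used, but those calls decided which genes stand in the study's tables and so which genes the lists below hold. Only FPKM as deposited entered the main test.

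F_P and P were compared with limma 3.58.1 in R 4.3.3 (empirical Bayes with a mean trend) on log2(FPKM + 1), the 6 purple libraries alone, for genes that reached 1 FPKM in 3 or more libraries. Benjamini-Hochberg adjustment ran over all genes tested, and calls needed an adjusted p no greater than 0.05 and a log2 fold change of 1 or more in either direction. The same model with all 12 libraries gave the difference from F_G vs. G. Tables were made in Python 3.11.15 with pandas 2.3.3, numpy 2.4.6, and scipy 1.17.1.

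Since FPKM values are whole fragments divided by length and library size, fragments were recovered for the depth and for 1 alternative test (100% of the values checked in each library, those under 1000 fragments, came out whole within 0.02). Depths were 16017796 to 16628923 fragments on annotated genes in the purple libraries. On simulated fragments for this comparison (23812 genes, dispersion 0.01), 99% of 100 genes changed by a log2 of 1.5 and 100% of 100 changed by 2 were called, with 1 false call. The changed genes were drawn only from genes with many fragments. These shares therefore do not hold for genes with low FPKM, for which recovery was not measured.

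Named were all genes with a Pde name, the 3 MYB and the 3 bHLH genes with the largest change, the highest and lowest called gene of each list with a mean of at least 10 FPKM in one group and no overlap, and the 2 highest and 2 lowest of all genes, 85 in all. Further genes are marked as chosen after their values were seen. The comparison, the lists, and this rule were chosen with earlier results of these data known. The lists are the readable IDs of the study's function tables, in which long cells are cut. None of the gene IDs matched the RefSeq table at hand, so no sequences are shown. Alternatives covered scaling, filter, pseudocount, thresholds, the voom fit, a fit of all libraries, a replicate block, and leaving out each library. Same-numbered F_P and P libraries did not deviate together (correlations of 0.0058, -0.0055, and 0.024), so the numbers were not taken as pairs.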

Additional observations from a re-analysis of the deposited data

Results flagged for a closer look

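The change of ZSY against the other cultivar differed between purple and green leaves for 5728 of 28339 genes by the test of the difference itself (limma, F_P over P minus F_G over G). Of these, 2828 differences were above 0 and 2900 below 0. The other cultivar was QHP on the purple side and L2025 on the green side, so leaf color and the second cultivar cannot be told apart in this difference.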

How the results depend on the processing

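The number of calls followed the minimum fold most. With no minimum fold, 13091 genes were called in place of 2619, with 27 structural genes, 17 MYB and bHLH genes, 535 members of the pathway lists, and 75 of the 76 named genes tested. When limma tested against a log2 fold change of 1, 1048 genes were called, with 3 structural genes, 3 MYB and bHLH genes, 110 list members, and 41 named genes. A filter of 5 FPKM left 5 called MYB and bHLH genes. Genes found in one cultivar only numbered 16, against 1 with a minimum of 5 FPKM and 101 with a mean under 0.1 FPKM.

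Other alternatives kept the number of calls within 1.5 times: 1755 genes with a filter of 5 FPKM, 3749 with a pseudocount of 0.1, and 3755 with voom on fragments, which shared 2559 of the 2619 calls. Scaling to total fragments called 2675 genes, 38.1% of them higher in F_P against 47.7%. Leaving out 1 library at a time gave 2129 to 2480 calls in all, 6 to 9 structural genes, 4 to 8 MYB and bHLH genes, 159 to 193 list members, and 49 to 52 named genes. The filter stayed at 1 FPKM in 3 libraries. Genes that reached it only in the group with a library left out were therefore not tested, which lowers these counts. The replicate block gave 2625 calls, 8 structural genes, 8 MYB and bHLH genes, and 194 list members, and 2610 calls were shared. Among single named genes, 1252 alternative values included 20 in 14 genes that lost the call, 26 in 20 genes that gained it, and 0 that turned their direction. At this depth, genes under 1 FPKM were mostly not tested, and 3 libraries against 3 limit the precision.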
